A study of Mus musculus and Homo sapiens with 56 samples.

Results

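N6-methyladenosine (m6A) on chromatin-associated RNA was compared between HEK293T cells with a short hairpin RNA against FTO (shFTO) and HEK293T cells with a hairpin against GFP (shGFP), a sequence with no human gene as its target. The samples were chosen by their labelled treatment and assay: 8 of the 56 samples of the series, each an immunoprecipitate or an input library, which gave 4 m6A peak lists, 2 per group. HEK293T is a human embryonic kidney line, and the cells of both groups had been infected with lentivirus and selected with puromycin, so infection and selection are shared by the control. The labels name no hairpin sequence and do not say whether the 2 replicates of a group are separate infections or cultures. P-values therefore measure the spread between these samples, which may be technical. Chromatin RNA was cut to short fragments and pulled down with an anti-m6A antibody, and each list sets 1 immunoprecipitate against 1 input library.

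m6A is placed on RNA during transcription, chiefly by the METTL3 and METTL14 complex in a short sequence context, and it is bound by reader proteins of the YTH family. FTO is a dioxygenase that removes the methyl group from m6A and from a related mark beside the cap of messenger RNA. ALKBH5 is the other m6A demethylase of human cells, and its knockdown by hairpin (shALKBH5, 2 lists) was used here only to set a second knockdown beside shFTO. A peak list holds no RNA level of FTO itself, so the depth of the knockdown could not be read from these values. Human gene annotation and genome sequence were not used here, so regions are given by hg38 coordinates and carry neither gene names nor sequence.

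In whole lists the 2 knockdown replicates lay on either side of the controls. The lists held 19720 and 18745 peaks in shGFP replicates 1 and 2, and 16305 and 22219 peaks in shFTO replicates 1 and 2. Peaks covered 12.3 and 12.6 Mb in shGFP and 9.86 and 15.05 Mb in shFTO. The group means were thus almost the same, 19233 ± 689 peaks (SD, n = 2) in shGFP and 19262 ± 4182 (SD, n = 2) in shFTO, with the wider spread in shFTO. The median fold enrichment of a list, which is the authors' ratio of immunoprecipitate to local background at the summit of a peak, was 8.04 and 7.99 in shGFP and 8.53 and 8.15 in shFTO. Both shFTO medians were above both shGFP medians, by 0.323 on average, with an exact two-sided permutation p of 0.333, which is the smallest that 2 lists against 2 allow. Median peak width was 493 and 518 bp in shGFP and 479 and 524 bp in shFTO, and the median -log10 q was 12.5 and 14.0 against 12.8 and 14.1. Groups overlapped in both, with exact permutation p values of 1 and 0.667.

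Depth and peak number went together in shFTO but not in shGFP. The lowest local background of a list, taken here as the fragments expected per position over the whole genome, was 0.200 and 0.305 in shGFP and 0.141 and 0.319 in shFTO. The shFTO list of fewest peaks had the lowest background of the 4 and the one of most peaks the highest, while the deeper shGFP list had fewer peaks. This value scales with the number of fragments in the immunoprecipitate, so it gives the relative depth of the 4 lists, while read totals were not used here.

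Peaks of the 4 lists that shared at least 1 bp were merged, which gave 26973 regions. Of these, 11818 (43.8%) were held by all 4 lists, 3496 by 3, 3990 by 2 and 7669 by a single list. The most frequent pattern after the shared regions was presence in shFTO replicate 2 alone, with 3601 regions, against 574 in shFTO replicate 1 alone. Presence in a single shGFP list came to 1806 regions for replicate 1 and 1688 for replicate 2. Of the peaks of shFTO replicate 1, 92.7% overlapped a peak of shFTO replicate 2, but only 64.4% of the peaks of replicate 2 overlapped one of replicate 1. Between the shGFP lists the shares were 78.1% and 80.3%.

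**Figure D1:**
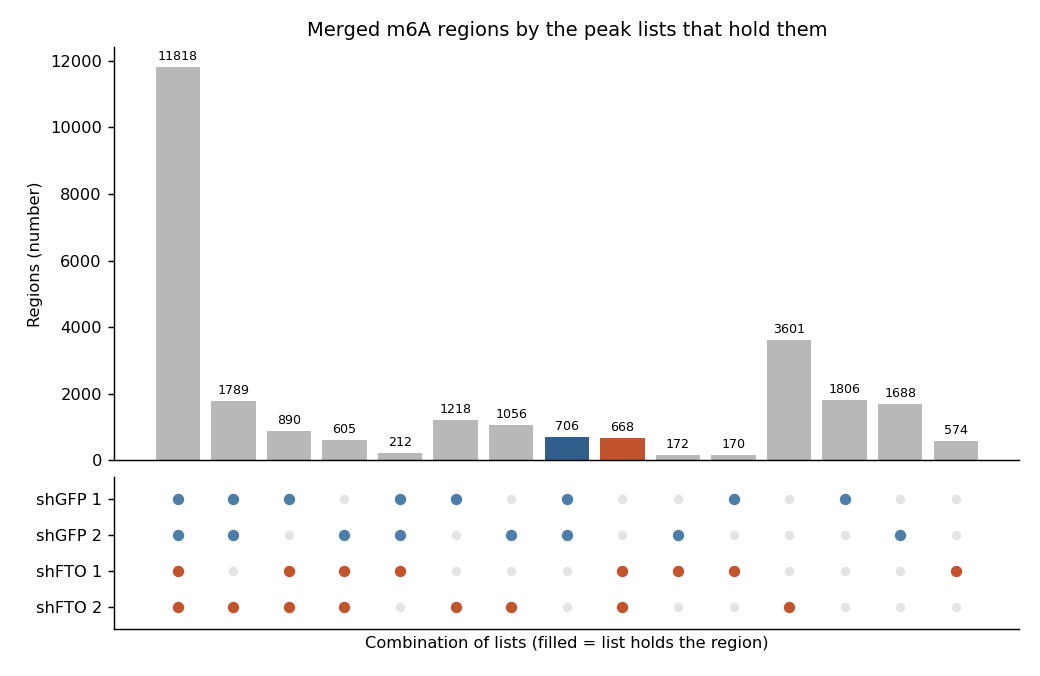
Number of merged regions (y axis) for each of the 15 combinations of lists that held any region; filled dots mark the lists that hold the region. The 668 regions of both shFTO lists and neither shGFP list (orange) and the 706 of both shGFP lists and neither shFTO list (dark blue) are each fewer than the regions of shFTO replicate 2 alone (3601).

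Regions that separated the groups by presence were few and similar in number in both directions. Both shFTO lists and neither shGFP list held 668 regions, 2.48% of all regions. Both shGFP lists and neither shFTO list held 706, or 2.62%. The 2 lists of replicate 1, 1 from each group, held 170 regions alone, and the 2 lists of replicate 2 held 1056. The 2 other mixed pairs, shGFP replicate 1 with shFTO replicate 2 and shGFP replicate 2 with shFTO replicate 1, held 1218 and 172 regions. Pairs that included shFTO replicate 2 and 1 shGFP list were therefore more frequent than the pair of shFTO lists. With 1 list left out, the remaining list of that group decided alone. The first count then ranged from 1293 to 4292, the highest without shFTO replicate 1, and the second from 919 to 2564, the highest without shGFP replicate 2.

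These regions were weak peaks in the lists that held them. In shFTO-only regions the median enrichment was 5.88 and 6.54 in shFTO replicates 1 and 2, against 10.4 and 11.9 in the regions shared by all lists. In shGFP-only regions it was 5.82 and 6.09 in shGFP replicates 1 and 2. Median widths were 302.5 and 399 bp in shFTO-only and 350.5 and 363 bp in shGFP-only regions. Ranked by -log10 q within a list, where 100 is the best peak, the shFTO-only regions had median percent ranks of 17.8 and 30.5 and the shGFP-only regions 23.0 and 21.3. Both kinds of region therefore came from the lower part of each list. A peak of the other group lay within 1 kb of 138 shFTO-only regions (20.7%) and of 132 shGFP-only regions (18.7%).

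A few of these regions ranked high. Only 11 shFTO-only regions and 20 shGFP-only regions were above the middle of the list in both lists that held them. The shFTO-only region of best mean rank, chr11:85503982-85504628, had an enrichment of 12.3 and 22.7 in shFTO replicates 1 and 2, from pileups of 13 and 29 fragments. Pileup is the number of immunoprecipitated fragments stacked at the summit. It was also a peak in both shALKBH5 lists, at 14.0 and 9.93. The region chr10:37777737-37778767 had 9.64 and 18.2 in the shFTO lists, and chr6:32814152-32814783 had 14.1 and 10.6. Among shGFP-only regions, chr3:156849041-156850137 ranked best, with an enrichment of 17.2 and 15.2 in shGFP replicates 1 and 2 from 20 and 19 fragments, and neither shALKBH5 list held it. In chr2:65020914-65021393 the shGFP values were 11.3 and 10.9, and in chr1:210099827-210100361 they were 11.8 and 13.3. All of these values rest on between 10 and 29 fragments per list, and a missing peak means only that the threshold of the caller was not reached. When the peaks of a list had to cover at least 50% of a region, chr10:37777737-37778767 and chr3:156849041-156850137 no longer counted as one-group regions.

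Some of the best-ranked one-group regions lie in repeated sequence. The scaffolds KI270733.1 and GL000220.1 and the short arm of chromosome 21 carry near-identical copies of the ribosomal RNA repeat in the hg38 assembly. The region KI270733.1:147948-148246 was held by both shFTO lists at an enrichment of 9.09 and 6.61. The regions GL000220.1:129772-130071 (6.19 and 6.46) and chr21:8458303-8458612 (7.58 and 5.36) were held by both shGFP lists. Which copy a read was assigned to is uncertain, so these regions stand in both directions without a statement on m6A.

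The shALKBH5 lists held part of both sets. Both shALKBH5 lists held 149 shFTO-only regions (22.3%) and 113 shGFP-only regions (16.0%), against 89.7% of the regions shared by the 4 lists. No shALKBH5 list held 218 shFTO-only regions (32.6%) and 329 shGFP-only regions (46.6%). The 2 knockdowns are set against the same shGFP lists, so these shares were not tested.

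The 11818 shared regions allowed a comparison of strength. Their median length was 861 bp, and 10042 of them had exactly 1 peak in each list. The median enrichment of a shared region was 11.1 and 10.4 in shGFP replicates 1 and 2 and 10.4 and 11.9 in shFTO replicates 1 and 2. The median summed width was 669 and 697 bp in shGFP and 595 and 747.5 bp in shFTO. In both measures the shFTO lists again held the extremes, so each list was centred on its median before the groups were compared. Across the shared regions, Pearson's r of log2 enrichment was 0.789 between the shGFP lists, 0.773 between the shFTO lists and 0.752 to 0.803 between lists of different groups. Regions are not independent replicates, and all pairs share the selection of regions. The pair with the highest r, shGFP replicate 1 with shFTO replicate 1, joined the 2 groups.

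**Figure D2:**
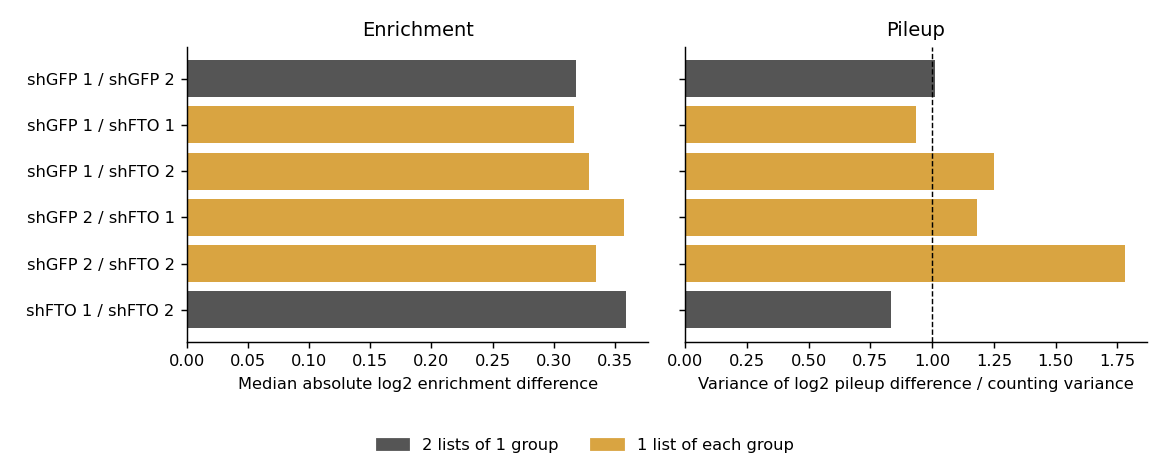
Left, median absolute difference of centred log2 enrichment between 2 lists over the 11818 shared regions; right, variance of the centred log2 pileup difference divided by the variance expected from counting fragments (dashed line at 1). Enrichment differs as much within a group (dark, 0.319 and 0.360) as between groups (yellow, 0.316 to 0.358), while the pileup ratio is lowest in the shFTO pair (0.835) and highest between shGFP 2 and shFTO 2 (1.78).

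No shared region passed the test for enrichment between shFTO and shGFP. In limma with Benjamini-Hochberg adjustment over all 11818 regions, 0 regions (0.00%) passed an adjusted p of 0.05, and the smallest adjusted p was 0.0547. At an unadjusted p under 0.05 there were 690 regions (5.84%), 339 higher and 351 lower in shFTO. The median difference was 0.01 on the log2 scale with an SD of 0.36 over regions, and 99.1% of regions lay within 2-fold. After centring, both shFTO values were above both shGFP values in 2020 regions (17.1%) and below both in 1808 (15.3%). Leaving out shGFP replicate 1 gave 1 region and leaving out shFTO replicate 2 gave 1, against 0 without either of the other lists.

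The precision depended on depth. Shared regions were split into 4 bins of equal number by mean pileup. In the lowest bin, 5 to 18.25 fragments, the SD of the shFTO minus shGFP log2 enrichment was 0.41. In the highest, 49 to 440 fragments, it was 0.28. The difference between the 2 shGFP replicates had an SD of 0.53 in the lowest and 0.40 in the highest bin, and that between the 2 shFTO replicates 0.54 and 0.41. The shFTO minus shGFP difference is between means of 2 lists, whereas the replicate differences are between single lists. A mean of 2 lists varies less than a single list, so these SDs are not like for like. The median shFTO minus shGFP difference was -0.04 in the lowest bin and 0.06 in the highest.

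Individual regions at the head of the enrichment ranking show the size of difference in the ratio that the 4 lists could not separate from their spread. These regions were named by their unadjusted p among those whose groups do not overlap after centring, 8 in each direction. None passed the adjustment for enrichment. Most of them were called in the pileup test given below, which depended on the fit and on single lists. Among these were chr15:99882879-99884185 (limma adjusted p for pileup = 4.9e-07) and chr8:530343-531287 (0.042), whereas chr19:44066162-44067175 was not called (0.652). The region chr9:123381965-123382795 had an enrichment of 5.21 and 5.47 in shGFP replicates 1 and 2 and of 11.3 and 22.6 in shFTO replicates 1 and 2. Its fitted log2 difference was 1.53 ± 0.37 (SE), with a limma adjusted p of 0.19. The pileups behind these values were 12 and 8 fragments in shGFP and 21 and 39 in shFTO. Both shFTO lists were above both shGFP lists, and the 2 shFTO values themselves differed by about as much as the lower of them from the controls.

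The region chr15:99882879-99884185 had an enrichment of 18.7 and 16.8 in shGFP and 34.4 and 48.3 in shFTO, with pileups of 26 and 21 against 40 and 84 fragments. Its width was 888 and 1068 bp in shGFP and 1195 and 1307 bp in shFTO. Its log2 enrichment difference was 1.16 ± 0.31 (SE, limma adjusted p = 0.21) and that of width 0.39 ± 0.19 (SE, limma adjusted p = 0.806). Among the 8 regions it was the most enriched in both shFTO lists. In chr3:136479273-136479821 the enrichment was 17.9 in shGFP replicate 1, 5.29 in shGFP replicate 2, 20.4 in shFTO replicate 1 and 32.6 in shFTO replicate 2, so that the difference rests on shGFP replicate 2. The region chr5:104398386-104399274 had 6.35 and 5.77 in shGFP and 13.4 and 21.3 in shFTO. The region chrX:27022783-27023740 had 8.17 and 7.66 in shGFP and 14.9 and 28.8 in shFTO. In each of these regions shFTO replicate 2, the deepest list, held the highest value.

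In chr19:44066162-44067175 the enrichment was 6.63 and 5.71 in shGFP and 14.3 and 17.5 in shFTO while the pileup hardly differed in shFTO replicate 1. The pileup was 16 and 19 fragments in shGFP and 16 and 31 in shFTO. The local background, the pileup expected there from the input library, was 1.56 and 2.50 in shGFP and 0.190 and 0.824 in shFTO. The higher ratio in this region therefore went with a lower local background, whose log2 difference was -2.12 ± 0.52 (SE, limma adjusted p = 0.542). The fold adds 1 to both of its parts, so its denominator differed by less than the background on the log2 scale.

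Among the regions lower in shFTO, chr8:530343-531287 had the smallest p. Its enrichment was 24.6 and 27.4 in shGFP and 7.92 and 10.0 in shFTO, a log2 difference of -1.59 ± 0.35 (SE, limma adjusted p = 0.0547). Its limma adjusted p ranged from 0.0225 to 1 over the alternatives and passed under 4 of them, each time as the only region. The pileup was 30 and 35 fragments in shGFP and 11 and 20 in shFTO, and the local background was 0.260 and 0.313 in shGFP and 0.516 and 1.098 in shFTO. The numerator was lower and the denominator higher in both shFTO lists. The shGFP backgrounds were little above the lowest of their lists, 0.200 and 0.305, and that lowest value follows the depth of the list. The enrichment of this region was 6.58 and 14.2 in shALKBH5, also below both shGFP values.

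The region chr13:83051593-83052195 had 12.6 and 15.2 in shGFP and 5.21 and 5.31 in shFTO, from 19 and 25 fragments against 6 and 6. The region chrX:101488496-101489445 had 15.1 and 19.2 in shGFP and 6.13 and 6.82 in shFTO, from 21 and 24 fragments against 6 and 8. Neither region was a peak in a shALKBH5 list. In chr11:27657829-27658706 the shGFP values were 21.3 and 21.5 and the shFTO values 4.38 and 17.4, so that shFTO replicate 1, with 4 fragments, made most of the difference. The region chr1:30718742-30719372 had 15.3 and 20.4 in shGFP and 6.70 and 8.01 in shFTO. The limma adjusted p of these 4 regions for enrichment ranged from 0.19 to 0.222.

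**Figure D3:**
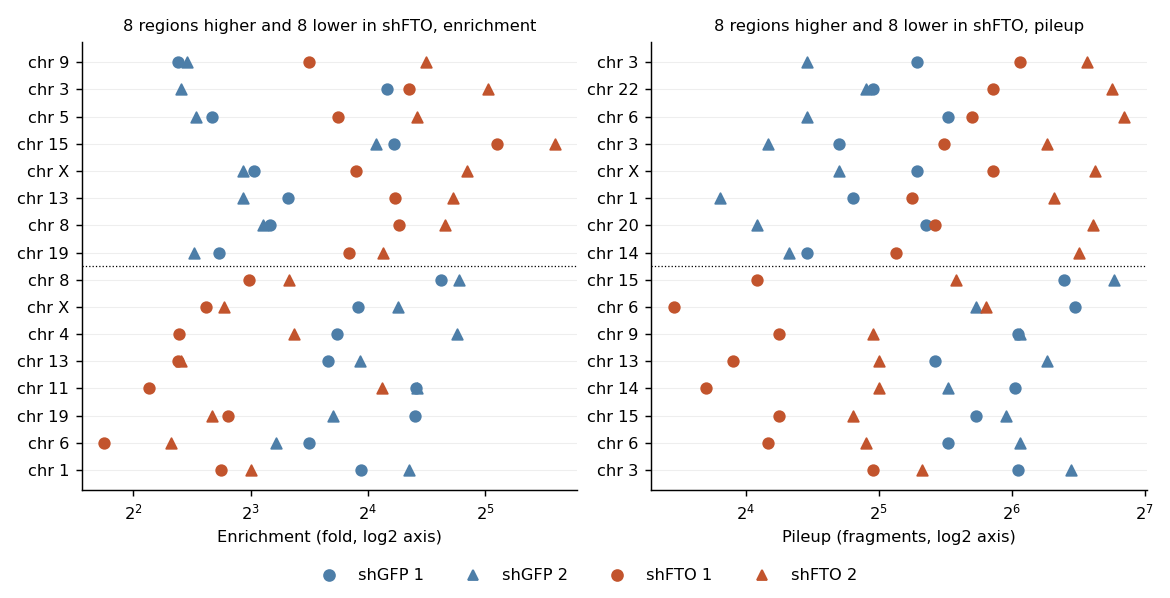
Value in each of the 4 lists (x axis, log2) of the 8 regions with the smallest p in each direction, for enrichment (left) and pileup (right), labelled by chromosome; circles are replicate 1, triangles replicate 2, and the dotted line separates regions higher (above) from lower (below) in shFTO. Values are as deposited or recovered, not centred; the choice of regions fixes that the centred values of the groups do not overlap, and in pileup 1 region on chr 6 overlaps before centring (53 fragments in shGFP 2, 56 in shFTO 2). shFTO 2 holds the highest value in each of the 8 regions of higher enrichment.

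The most enriched shared regions were strong in every list. The region chr6:142752937-142754053 had an enrichment of 39.8 and 61.4 in shGFP and 75.2 and 80.6 in shFTO, from 110 and 120 against 110 and 147 fragments. Its groups did not overlap, and its log2 difference of 0.61 ± 0.25 (SE) had a limma adjusted p of 0.72. The region chr5:178121200-178122443 had 76.8 and 45.1 in shGFP and 51.3 and 58.4 in shFTO, a log2 difference of -0.15 ± 0.26 (SE, limma adjusted p = 0.9997). In chr6:73194327-73195544 and chr1:109928687-109929991 the values were 57.7, 52.5, 65.5 and 49.9, and 44.3, 55.5, 42.9 and 72.0, in the same order of lists. Groups overlapped in these 3 regions.

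Width gave a like count. After centring, 0 of 11818 regions (0.00%) passed in limma, with a smallest adjusted p of 0.209. At an unadjusted p under 0.05 there were 793 regions (6.71%), 409 wider and 384 narrower in shFTO. The region chr19:52839527-52841610 was 451 and 479 bp wide in shGFP and 1345 and 1661 bp in shFTO, where it was made of 2 peaks per list (log2 difference 1.72 ± 0.21, SE, limma adjusted p = 0.209). Its enrichment was 7.50 and 6.80 in shGFP and 9.39 and 15.4 in shFTO. The region chrX:121047975-121049503 was 1195 and 1507 bp wide in shGFP and 277 and 326 bp in shFTO (log2 difference -2.12 ± 0.25, SE, limma adjusted p = 0.209). Its enrichment overlapped between groups, at 4.79 and 7.62 against 5.26 and 5.31, on 7 and 9 against 5 and 6 fragments. In chr9:66266933-66269707 the widths were 1907 and 2775 bp against 790 and 1133 bp. Leaving out shGFP replicate 1 or 2 gave 155 or 45 regions, and leaving out a shFTO list gave 0.

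Rank within the shared regions, by -log10 q on a scale from 0 to 100, also gave 0 of 11818 regions (0.00%) in limma, with a smallest adjusted p of 0.165. At an unadjusted p under 0.05 there were 1012 regions (8.56%), 521 higher and 491 lower in shFTO. Both shFTO ranks were above both shGFP ranks in 2253 regions (19.1%) and below both in 2258 (19.1%). The SD of the rank difference over regions was 12.8. The region chr15:99882879-99884185 described above was at percent ranks of 80.3 and 73.0 among all peaks of the shGFP lists and 94.5 and 98.3 among those of the shFTO lists. Leaving out shGFP replicate 1 gave 57 regions, shGFP replicate 2 gave 3, shFTO replicate 1 gave 10 and shFTO replicate 2 gave 6.

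The deposited fold enrichment and p-value of a peak together give back its 2 parts, the pileup of immunoprecipitated fragments and the local background. A single whole number of fragments solved both for between 99.7% and 99.9% of the peaks of a list, within 0.001 on the -log10 p. Over shared regions the median pileup was 27 and 32 fragments in shGFP and 21 and 36 in shFTO, and the median local background 1.34 and 1.88 against 1.00 and 1.98. This comparison was added after the data were seen. It rests on 11742 regions with a solution in each list.

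Pileup, unlike enrichment, separated some regions. In limma on centred log2 pileup, 287 regions (2.44%) passed an adjusted p of 0.05, of which 194 (1.65%) were higher and 93 (0.792%) lower in shFTO. At an unadjusted p under 0.05 there were 1470 regions (12.5%). The count depended on the fit and on single lists. Without shFTO replicate 2 it was 2, without shFTO replicate 1 it was 157 and without shGFP replicate 2 it was 94. Without the variance trend it was 6, without centring it was 0, and in a fit that also held the shALKBH5 lists it was 88. Over regions with exactly 1 peak in each list it was 172. Of the 16 regions named for pileup, 8 in each direction, 14 lost their call without shFTO replicate 2, and all 16 without the variance trend or without centring, each with its sign kept.

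The spread of pileup within a group was near that of counting. The variance of the log2 pileup difference was 1.01 times the counting variance between the shGFP replicates and 0.835 times between the shFTO replicates. Between groups it was 0.936 for the 2 replicates 1, 1.18 and 1.25 for the crossed pairs and 1.78 for the 2 replicates 2. The excess between groups was thus largest in the pair of deeper lists, and the shallower pair had none. A highest value over a region varies less than a plain count, which can lower all 6 ratios. The 2 lists of each group differ in depth and in their peaks, which does not show that they are separate cultures. They were treated as 2 replicates, so the limma p-values for pileup rest on a spread within groups that is near counting.

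**Figure D4:**
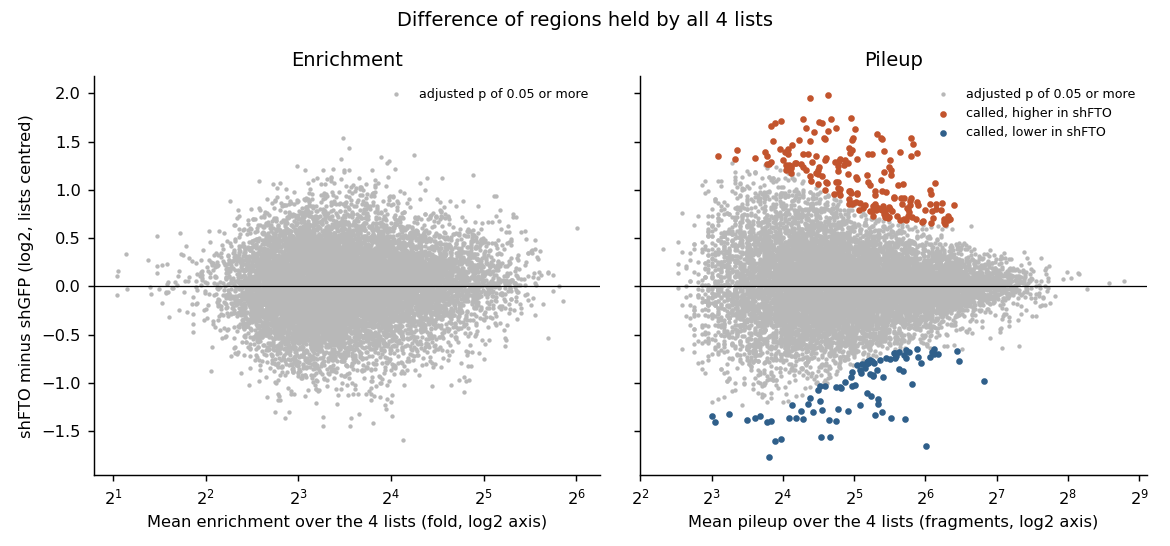
Difference between shFTO and shGFP (y axis, log2, lists centred) against the mean over the 4 lists (x axis, log2), for enrichment in 11818 shared regions (left) and pileup in 11742 (right); each point is a region. No region passes in enrichment, whereas 194 higher (orange) and 93 lower (blue) regions pass in pileup, at the outer edge of a spread that narrows with depth.

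Among regions with a higher pileup, chr3:66273398-66275216 had 39 and 22 fragments in shGFP and 67 and 95 in shFTO, a log2 difference of 1.54 ± 0.20 (SE, limma adjusted p = 2.1e-10). Its enrichment was 23.95 and 11.7 in shGFP and 31.7 and 23.88 in shFTO, so the groups overlapped in the ratio. The local background was 0.670 and 0.962 in shGFP and 1.14 and 3.02 in shFTO. Numerator and denominator were both higher in shFTO.

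The region chr22:22276991-22278867 had pileups of 31 and 30 in shGFP and 58 and 108 in shFTO (log2 difference 1.47 ± 0.20, SE, limma adjusted p = 1.5e-09). Its enrichment was 17.3 and 13.9 against 33.2 and 21.3, and its background 0.851 and 1.24 against 0.776 and 4.12. In chrX:14621513-14622854 the pileup was 39 and 26 against 58 and 99, the enrichment 28.9 and 18.4 against 43.9 and 47.4, and the background 0.383 and 0.468 against 0.343 and 1.11. In both regions the background was higher in shFTO replicate 2 and not in replicate 1. In chr6:109133199-109136619 the pileup was 46 and 22 against 52 and 115, so that shFTO replicate 1 lay close to shGFP replicate 1. The same held for chr20:25728037-25730031, with 41 and 17 against 43 and 98 fragments, and its enrichment overlapped between groups. Enrichment did not overlap in chr6:109133199-109136619, at 26.4 and 10.2 against 29.3 and 33.4. Nor did it in chr3:6588585-6589478, at 8.35 and 4.98 against 16.9 and 11.5. The named regions chr1:225169967-225171406 and chr14:30667657-30668865 were also apart in enrichment, higher in shFTO.

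The region with the smallest p was lower in shFTO. In chr15:40955332-40956290 the pileup was 84 and 109 fragments in shGFP and 17 and 48 in shFTO, a log2 difference of -1.65 ± 0.20 (SE, limma adjusted p = 2.1e-12). It was 1 of the 2 named regions still called without shFTO replicate 2, at -2.03. The local background was 2.68 and 3.26 in shGFP and 0.286 and 0.532 in shFTO, a log2 difference of -2.73 ± 0.43 (SE, limma adjusted p = 0.542). The enrichment was 23.1 and 25.8 in shGFP and 14.0 and 32.0 in shFTO and overlapped. The region thus had fewer fragments in immunoprecipitate and background alike, with no separation in the ratio.

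The region chr9:125236404-125237165 was of the same kind. Its pileup was 66 and 67 against 19 and 31, its background 15.4 and 25.7 against 2.76 and 9.89, and its enrichment 4.08 and 2.55 against 5.32 and 2.94. In chr3:49530623-49533632 the pileup was 66 and 87 against 31 and 40, the background 3.13 and 3.71 against 1.14 and 1.29, and the enrichment 16.2 and 18.7 against 14.9 and 17.9. By contrast chr13:61411337-61414232 had 43 and 77 against 15 and 32 fragments together with an enrichment of 25.7 and 48.0 against 13.4 and 25.0, and both shFTO enrichments were below both shGFP values.

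Over the called regions, the background difference had the sign of the pileup difference in 173 of the 194 higher regions (89.2%) and in 81 of the 93 lower regions (87.1%), against 61.7% over all 11742 regions. The called regions were chosen for large pileup differences, whereas the quartiles of the difference over all regions were -0.20 and 0.23. The sign of a small difference is less certain, so these shares are not like for like. The median background difference was 0.71 on the log2 scale in the higher regions and -0.75 in the lower, beside pileup differences of 1.08 and -0.99. The enrichment difference had the sign of the pileup difference in 188 of the higher regions (96.9%) and in 85 of the lower (91.4%). Its median was 0.62 and -0.67 in these, and the sign was shared in 8520 (72.6%) of all 11742 regions. An unadjusted limma p under 0.05 for enrichment was found in 43.8% of the higher and 50.5% of the lower regions, against 5.78% of all. Pileup and enrichment share the same fragments, so these enrichment shares are no second line of evidence. For background itself, 0 of 11742 regions passed in limma, with a smallest adjusted p of 0.542 and 945 regions (8.05%) at an unadjusted p under 0.05. The background stands for RNA in the input, except near the lowest value of a list, which follows the depth of the list. In chr11:27657829-27658706 it was at that lowest value in both shFTO lists, 0.141 and 0.319. The part of the background in the pileup result was not tested.

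**Figure D5:**
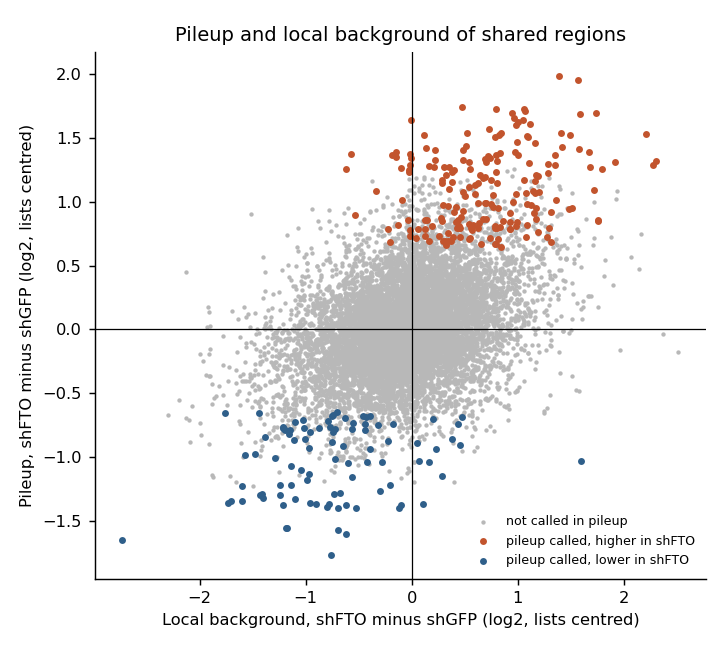
Difference in pileup (y axis) against difference in local background (x axis), both shFTO minus shGFP on a log2 scale with lists centred, for 11742 shared regions; each point is a region. Called regions of higher pileup (orange) lie mostly right of 0 (173 of 194) and those of lower pileup (blue) mostly left of it (81 of 93).

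Neighbouring regions more often shared a sign in pileup than in enrichment. Of 2883 pairs of adjacent shared regions less than 10 kb apart, 62.5% had pileup differences of the same sign and 60.6% background differences of the same sign, against 53.7% for enrichment. In the 16 such pairs where both regions were called in pileup, the pileup and the background had the same sign in all 16, and the enrichment in 14. Pairs this close can lie on 1 transcript and share an input window, which was not resolved here without gene models. Regions near the lowest background of each list can also have nearly equal background differences wherever they lie. The difference was -0.10 in both chr11:27657829-27658706 and chr5:141489914-141490968. How far this raised the background share was not tested.

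Set beside the shALKBH5 lists, shFTO differed in 1 region and only in pileup. Merging all 6 lists gave 10548 regions that every list held. In a limma fit over the 6 lists, 0 of these differed between shFTO and shALKBH5 in enrichment, 0 in width and 0 in rank, with 476, 484 and 648 at an unadjusted p under 0.05. In pileup, 1 of 10455 regions differed. In the same fit, shFTO against shGFP gave 0, 0 and 0 regions for these measures and 88 for pileup, of which 71 were higher.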

How the data were processed

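m6A immunoprecipitation of HEK293T chromatin RNA was read from 4 deposited peak lists, 2 shGFP and 2 shFTO, and 2 shALKBH5 lists for comparison. Per the submitters' processing notes, the tools were MACS2 2.1.1 and HISAT2 2.1.0, with Trimmomatic 0.33.0, SAMtools 1.7 and Picard 2.16.0, and the builds hg38 and mm10, with no role stated for any of them. The lists have the narrowPeak layout of MACS2. The fold enrichment, a ratio of immunoprecipitate to local background at the summit, and the -log10 p and -log10 q are the values the authors deposited, with a lowest -log10 q of 1.30 to 1.40. They describe single peaks called per replicate. Other columns hold positions and summit offsets as deposited by the authors. A caller's fold adds 1 to both parts, which draws weak peaks towards 1.

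Peaks sharing 1 bp were merged into regions. Per region and list, the highest enrichment, the summed width and the best -log10 q were used. Log2 values centred on each list's median were compared in R 4.3.3 with limma 3.58.1 (variance trend, Benjamini-Hochberg, adjusted p of 0.05). Pileup and background were solved from fold and p, with a tolerance of 0.001 on -log10 p. The pileup of a region is the highest of its peaks. This definition replaced the pileup at the most enriched peak after its values were seen. Both scripts were tested on simulated data. Whole lists were compared by exact permutation. Regions named were the 8 per direction of smallest p with groups that do not overlap after centring for enrichment, 4 for width, 4 of highest mean enrichment and 6 per presence direction of best mean rank. Only some of these are printed. The 8 per direction for pileup were added later. Members and lists were chosen with earlier results of these data known. Alternatives were a replicate block, no trend, no centring, quantile normalisation, other summaries per region, a minimum -log10 q of 5, the top 16305 peaks of each list, merging across 100 bp, a cover of 50%, 1 peak per list, 6 lists, and each list left out. A lone list is then assumed to vary like the other group. The gene lists and cell markers planned could not be applied without human annotation. Tables were made in pandas 2.3.3 and scipy 1.17.1 under Python 3.11.15.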

Additional observations from a re-analysis of the deposited data

Results flagged for a closer look

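In 1 region the pileup differed between the 2 knockdowns. In chr18:1362495-1363238 the log2 difference of shFTO minus shALKBH5 was 1.92, with a limma adjusted p of 0.0169 in the fit over 6 lists. The pileup was 42 and 48 fragments in shGFP, 24 and 37 in shFTO, and 10 and 6 in shALKBH5. The enrichment was 25.8 and 19.1 in shGFP, 18.6 and 20.8 in shFTO, and 9.04 and 5.79 in shALKBH5. Against shGFP, the shFTO pileup differed by -0.48 on the log2 scale (limma adjusted p = 0.716) and the shALKBH5 pileup by -2.40. The low values are those of shALKBH5, and its local background was 0.216 and 0.208, the lowest of each list.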

How the results depend on the processing

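For enrichment, the count of 0 became 1 with quantile normalisation, with a minimum -log10 q of 5, with the same number of top peaks and with 1 peak in each list, and ranged from 0 to 1 with a list left out. It was 0 under the other alternatives run. Width gave 0 to 155 and rank 3 to 57 regions with a list left out. The pileup count of 287 was 6 without the variance trend, 0 without centring, 172 with 1 peak in each list and 88 with the shALKBH5 lists in the fit, and 2 to 304 with a list left out. With the pileup taken at the most enriched peak, the definition first run, it was 298, of which 282 were among the 287. The 668 shFTO-only regions ranged from 1293 to 4292 and the 706 shGFP-only regions from 919 to 2564 with a list left out, where the remaining list decides alone. Under the other alternatives they came to 631 to 736 and 561 to 850. The cause of these changes was not tested. No region named for enrichment, width or pileup changed direction under the alternatives run, and the single region that passed in enrichment was chr8:530343-531287 under the 4 alternatives above, chr3:136479273-136479821 without shGFP replicate 1 and chr11:27657829-27658706 without shFTO replicate 2. Of the 12 regions named for presence, 3 lost it where peaks had to cover 50% of the region: chr10:37777737-37778767, chr3:156849041-156850137 and chr1:28642534-28643500. Depth limits regions of few fragments most.

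With the replicate number as a replicate block, enrichment gave 0 regions, width 13, rank 48 and pileup 235, of which 229 were among the 287. Deviations of same-numbered lists from their group means had a correlation of 0.067 in enrichment, -0.012 in width and -0.032 in rank over 11818 regions, and of -0.076 in pileup over 11742. The labels do not say what a number marks, so it was not taken as a pairing. The list of replicate 2 was the deeper in both groups.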

Other observations

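On chromosome X, 18 shared regions had a higher and 8 a lower pileup in shFTO, 6.25% of its 416 shared regions. The next highest share among chromosomes with over 100 shared regions was 4.51% on chromosome 13, and the lowest was 0.722% on chromosome 16. Chromosomes were looked at after the calls were made, and these shares were not tested.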
